A study of Drosophila melanogaster with 20 samples.

Results

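The 10 genes described here encode potassium channels that open with voltage or with calcium, and were taken by symbol (Sh, Shab, Shal, Shaw, eag, sei, Elk, KCNQ, slo and SK) from a table of raw read counts for 17609 Drosophila melanogaster genes. All 10 symbols were found in the table, and all 10 genes passed the filter on low counts in every comparison. RNA came from pooled whole heads of 1-week-old unmated flies. The 20 samples were 5 pools each of w+ (red-eyed) males, w- (white-eyed) males, red-eyed females and white-eyed females. The w- flies carried the w1118 partial deletion of white and no working copy of the gene. The w+ flies carried an intact white allele that came from the Harwich strain and had been backcrossed repeatedly into w1118, and since their fathers were w1118 the w+ females had 1 working copy, as did the w+ males. All 4 groups were offspring of the same cross and shared the w1118 background. Only 1 donor allele and 1 w- line were compared, so the white allele and any Harwich sequence that stayed linked to it cannot be told apart. Nothing states that the pools of a group came from separate cultures, so the p-values measure the spread between these pools.

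Potassium channels let potassium leave the cell, which ends the action potential, sets the interval to the next one and limits transmitter release. In Drosophila the subunits Shaker (Sh), Shab, Shal and Shaw found the 4 classic families of voltage-gated channels, Sh and Shal carrying fast inactivating currents and Shab and Shaw slower or sustained ones. Ether-a-go-go (eag), seizure (sei) and Elk form the EAG family, with sei the fly relative of the human ERG channel, and KCNQ carries an M-type current. Slowpoke (slo) is the large-conductance channel that opens with both voltage and calcium, whereas SK is the small-conductance channel, which opens with calcium through bound calmodulin and not with voltage. Flies that lack Sh or eag function shake their legs under ether, and slo and sei mutants are known for temperature-sensitive paralysis or seizures.

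In the BDGP6.54 annotation the members are long genes, with 2 (Elk) to 23 (slo) transcripts. Sh is at X:17924307-18063247 on the minus strand and has 17 transcripts. The other X-linked members are eag at X:14955477-15009989 and SK at X:5340236-5405138, both on the plus strand. SK has 14 transcripts and starts 2.54 Mb from white (w, X:2790599-2796466, minus strand), compared to 12.16 Mb for eag and 15.13 Mb for Sh. On the autosomes, Shab is at 3L:2895017-2959579 (plus), Shal at 3L:19566851-19584568 (minus), Shaw at 2L:3718185-3729145 (plus) and slo at 3R:24662491-24711595 (plus). The remaining members are on 2R, with sei at 2R:24047411-24053035 (plus), Elk at 2R:17873939-17926695 (plus) and KCNQ at 2R:10145897-10192394 (minus). Their spans run from 5625 bp for sei to 138941 bp for Sh, against a median of 2163 bp over 13975 protein-coding genes. The median is 2 transcripts per protein-coding gene, and Shal and sei have 3 each. No member shares exonic bases with another gene on its own strand, which is the strand the reads were counted on. The counts are per gene, so the splice forms are not separated here.

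The members had between 1126 counts (Elk) and 78294 counts (Sh) in a sample, out of 34.2 to 48.9 M counts on all genes. White had 374 to 688 counts in each w+ sample and 4 to 15 in each w- sample, and roX1 and Yp1 separated the sexes in all 20 samples. The neuron markers elav, nSyb and brp and the photoreceptor opsin ninaE were present in every sample, as labelled for heads. Yolk protein genes took 4.63 to 12.2% of the counts in a w+ female sample, 4.21 to 8.35% in a w- female sample and at most 0.0066% in a male one. TMM normalization, which scales each sample by the genes that differ least, gave factors from 0.793 in w+ female replicate 4 to 1.1 in w- males. Levels below are counts scaled to a common library total after this normalization, in the usual unit CPM.

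Per kilobase of total exon length, the members fell into clear tiers that held in all 4 groups. Sh, SK and slo were the highest, Shab came next, Shaw and Shal followed, sei, eag and KCNQ were lower, and Elk was the lowest. In w+ males, the levels per kilobase were 68.1 ± 4.74 CPM for Sh, 62.3 ± 8.18 for SK and 54.8 ± 4.68 for slo (SD, n = 5 each), and these neighbors overlapped between samples. Shab was at 36.3 ± 2.41 CPM per kilobase in the same flies and overlapped with neither slo above it nor Shaw below it. The level of Shaw, 29.1 ± 1.92, overlapped with that of Shal, 27.7 ± 1.25. Further down were sei at 19.4 ± 0.568, eag at 16.4 ± 1.5 and KCNQ at 16.3 ± 0.896 CPM per kilobase, where each overlapped with its neighbor in w+ males. Elk, at 7.9 ± 0.708, lay below every KCNQ sample. Among all genes kept, the mean level per kilobase placed Sh at the 90.2th percentile and Elk at the 47.1th. When the longest transcript was used as the length, Sh had 127 CPM per kilobase in w+ males in place of 68.1, and it stayed the highest in each group. The steps between the tiers changed with this length. In w+ males SK was then at 76.8 ± 10.1, slo at 62.8 ± 5.36 and Shab at 54.3 ± 3.6 CPM per kilobase, so slo and Shab were not clearly apart.

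**Figure D1:**
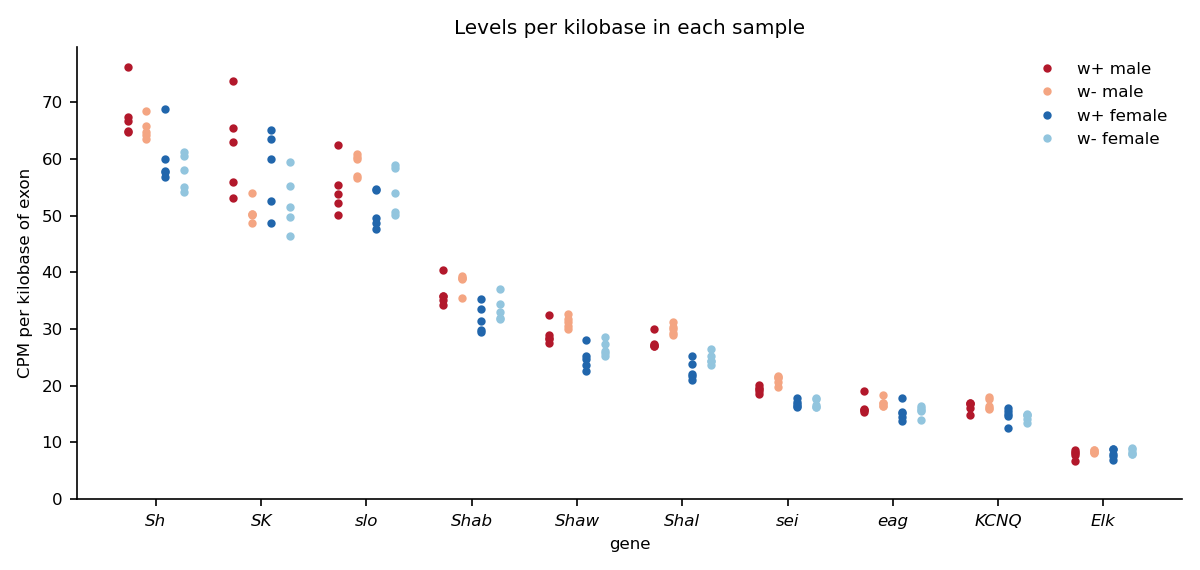
Level of each member in each of the 20 pooled head samples, in CPM per kilobase of exon (vertical axis, from 0), with the genes on the horizontal axis and the 4 groups in color; each point is 1 sample. Sh, SK and slo lie at the top, where neighbors in rank overlap in every group except w- males. Elk lies at the bottom, with a mean of 8.41 in w- males.

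By total exon length, the order differed between groups only for SK and slo. In w+ males and w+ females SK ranked above slo, and in w- flies of both sexes it ranked below slo. The ranges of SK and slo overlapped in every group except w- males. By the longest transcript SK ranked above slo in w- females too (64.8 against 62.5 CPM per kilobase), and the order of sei, eag and KCNQ differed between groups. Of the summed level of the 10 members per kilobase, SK made up 18.4 ± 1.45% in w+ males and 15 ± 0.389% in w- males (SD, n = 5 each), and 19 ± 1.27% and 17.2 ± 0.862% in the females of these genotypes. The share of slo was 16.2 ± 0.564% in w+ males and 17.5 ± 0.449% in w- males, and 16.8 ± 0.513% and 17.8 ± 0.486% in w+ and w- females. These shares are descriptions and were not tested. The summed level itself was 338 ± 24 CPM per kilobase in w+ males and 338 ± 6.81 in w- males, and 304 ± 23.4 and 305 ± 17.4 in w+ and w- females (SD, n = 5 each). SK was also the most variable member among w+ pools, with a coefficient of variation of 13.1% in w+ males and 12.2% in w+ females, compared to 3.88% in w- males and 9.55% in w- females.

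**Figure D2:**
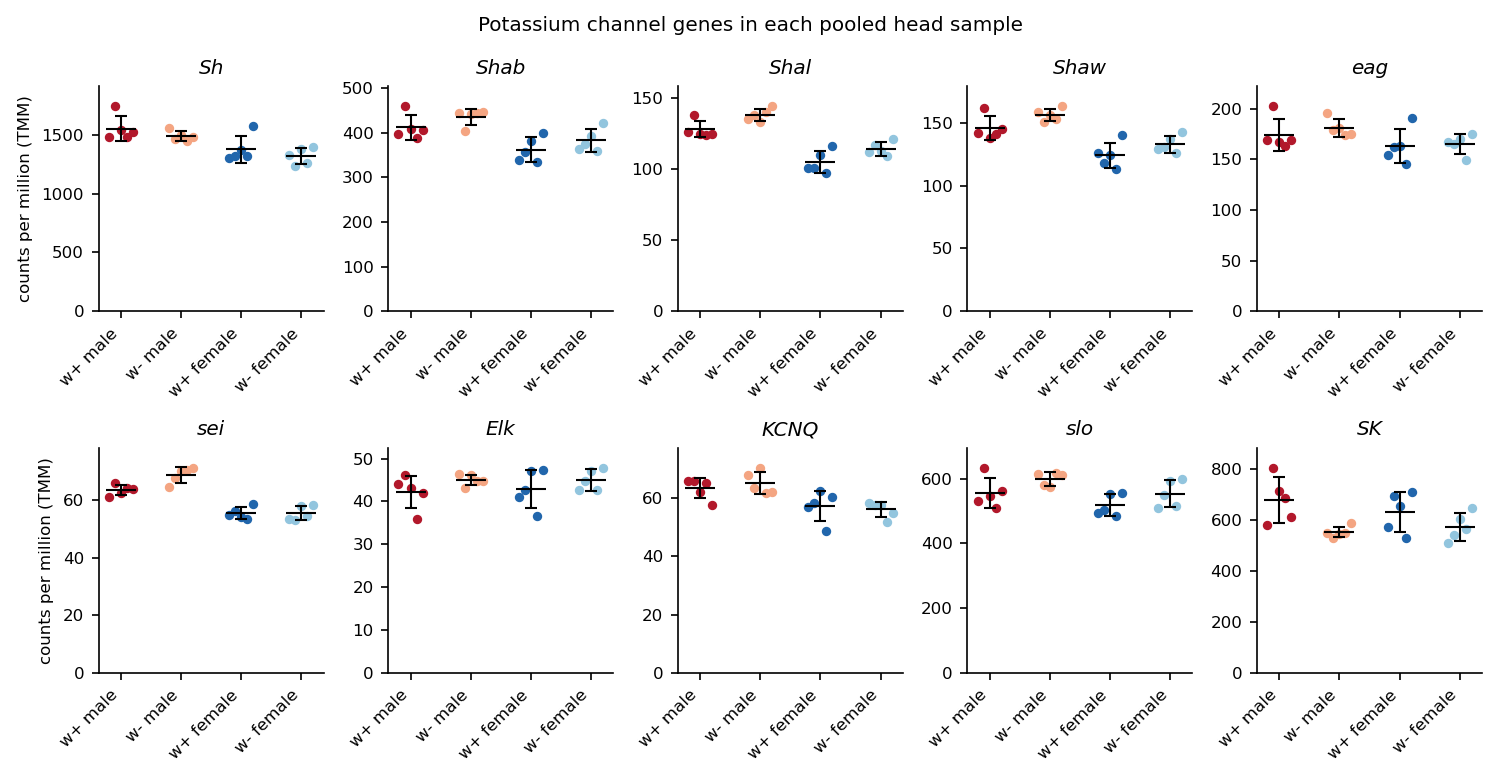
TMM-normalized level of each member in CPM (vertical axes, from 0) in each of the 4 groups; points are the 5 samples of a group and black bars the mean and SD. The SK samples of w- males (530 to 588 CPM) sit at the lower end of those of w+ males (578 to 803 CPM), and Shal and sei are higher in every male than in any female of the same genotype.

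To ask whether loss of white changed the channels in males, w- males were compared with w+ males. None of the 10 members passed the test (edgeR's quasi-likelihood test with the replicate number as a block, Benjamini-Hochberg adjusted p under 0.05), where 12.7% of all 11187 genes tested did. Without adjustment 3 members, Shal, sei and SK, had a p under 0.05, against 26.5% of all genes, and DESeq2 called 1, SK, against 12.2%. The w+ and w- ranges overlapped for all 10 members, while 13.0% of all genes had ranges that did not overlap. The median log2 fold change (w- minus w+) was 0.08 over the members and 0.001 over all genes. Of all genes called, 63.5% were lower in w- males, or 40.7% when samples were scaled by library size alone.

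SK had the largest difference of the members in males. It was 578, 803, 714, 687 and 609 CPM in w+ male replicates 1 to 5, and 548, 530, 546, 548 and 588 CPM in the w- male replicates. All w- samples but replicate 5 lay below every w+ sample, and within each replicate number the w- sample was the lower one. The log2 fold change was -0.29 with a standard error of 0.08, or 0.816 times the w+ level (edgeR adjusted p = 0.059). Over 13 alternatives the log2 fold change stayed between -0.36 and -0.22 and the adjusted p between 0.0023 (DESeq2) and 0.18 (without replicate 3), with a call in 5 of them. Without the replicate block SK passed the test, at -0.30 and an edgeR adjusted p of 0.024. Leaving out replicate 1 also gave a call (-0.36, adjusted p = 0.038).

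The other members moved little between w- and w+ males. sei, at 63.5 ± 1.86 CPM in w+ and 68.8 ± 2.71 CPM in w- males (SD, n = 5 each), was 61, 65.9, 62.4, 64.4 and 63.8 CPM in the w+ and 64.5, 67.6, 70, 70.4 and 71.2 CPM in the w- replicates. Its log2 fold change was 0.11 with a standard error of 0.04 (edgeR adjusted p = 0.1), and the w- sample was the higher one in 5 of 5 replicate numbers. Shal was likewise at 0.11 on the log2 scale (standard error 0.04, edgeR adjusted p = 0.15) and was higher in w- males in 5 of 5 numbers. In the voltage-gated Shaker-type group, Shab was at 0.08 and Shaw at 0.10 in w- minus w+ males, whereas Sh was at -0.06 (log2 fold changes; edgeR adjusted p between 0.26 and 0.53). The values were 0.06 for eag, 0.09 for Elk, 0.03 for KCNQ and 0.10 for slo (edgeR adjusted p between 0.34 and 0.7). Without w+ male replicate 2, which had the highest value of its group for 10 of the 10 members, Shab (0.14, adjusted p = 0.041) and Shaw (0.15, adjusted p = 0.026) passed the test.

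In females the same comparison, w- against w+, gave 0 called members with edgeR's quasi-likelihood test and 0 with DESeq2, where 9.23% and 15.8% of the 10762 genes tested were called. Unadjusted, 3 members, Shal, Shaw and slo, had a p under 0.05, against 32.1% of all genes. No member had ranges that did not overlap, while 6.73% of all genes did. The median log2 fold change was 0.05 over the members and -0.004 over all genes. Of all genes called, 48.8% were lower in w- females, or 16.9% with library size alone, which moved the median of all genes by 0.14 and gave 3 called members, Shal, Shaw and slo. The share of all genes called with library size alone is not given here, so these 3 calls have no background share.

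Shal had the smallest adjusted p among the members in females. It was 101, 101, 110, 97.1 and 116 CPM in w+ female replicates 1 to 5, and 112, 117, 113, 109 and 121 CPM in the w- replicates. The w- sample was higher in 5 of 5 numbers, the log2 fold change was 0.13 with a standard error of 0.04 (edgeR adjusted p = 0.074), and the ranges overlapped. SK was 573, 692, 654, 530 and 709 CPM in the w+ and 507, 541, 602, 562 and 648 CPM in the w- females. It was lower in the w- sample in 4 of 5 numbers, with a log2 fold change of -0.14 and a standard error of 0.07 (edgeR adjusted p = 0.2). With library size alone this difference was 0.00. Shaw (0.10), slo (0.09), Shab (0.08) and Elk (0.07) were above 0 and higher in the w- sample in 5 of 5 numbers, while eag (0.02), sei (0.00), KCNQ (-0.03) and Sh (-0.06) lay near 0, all with an edgeR adjusted p between 0.1 and 0.97.

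**Figure D3:**
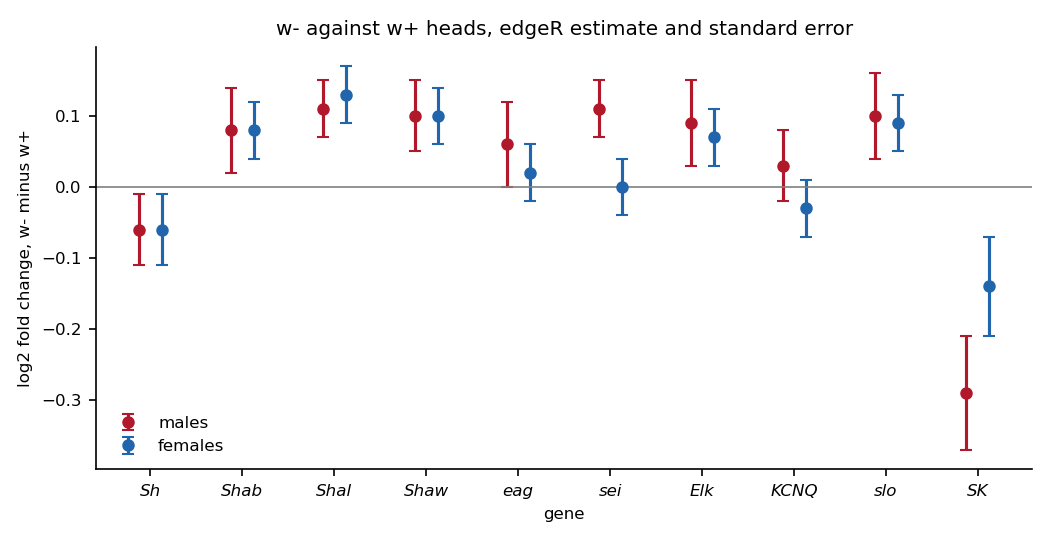
Log2 fold change of each member between w- and w+ heads (vertical axis, w- minus w+) in males and females; points are edgeR estimates and bars their standard errors, from 5 samples per group. No member passed the test, and SK lies lowest in both sexes, at -0.29 in males and -0.14 in females.

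A fit of all samples together asked whether loss of white acted differently in females and males. None of the 10 members passed edgeR's quasi-likelihood test for this difference, and DESeq2 called 0 as well, where 0.0263% of all 11423 genes passed the edgeR test. Unadjusted, 1 member, sei, had a p under 0.05, against 6.03% of all genes. The change of sei in females minus that in males was -0.11 on the log2 scale with a standard error of 0.05 (unadjusted p = 0.035, edgeR adjusted p = 0.8). For SK the difference was 0.15 with a standard error of 0.11 (edgeR adjusted p = 0.9). For the other 8 members the difference lay between -0.07 and 0.01.

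Females were then compared with males within each genotype. Each of these comparisons uses the same w+ or w- samples as the comparisons above. In w+ flies, 5 of the 10 members were lower in females and none was higher (edgeR's quasi-likelihood test, adjusted p under 0.05), whereas 15.8% of all genes were called lower and 19.7% higher. The 5 were the Shaker-type genes Sh, Shab, Shal and Shaw and the ERG-type gene sei, and they differed by -0.28 to -0.17 on the log2 scale. The ranges of 2 members, Shal and sei, did not overlap, against 18.5% of all genes. The median log2 difference (females minus males) was -0.16 over the members and 0.00 over all genes. In bulk heads, fewer cells that express a gene and less of its RNA per cell cannot be told apart.

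Shal, a subunit of the fast inactivating current of neuron cell bodies and dendrites, had the largest difference in w+ flies. It was 126, 138, 125, 124 and 125 CPM in w+ males and 101, 101, 110, 97.1 and 116 CPM in w+ females, so every male sample was above every female sample. The log2 difference was -0.28 with a standard error of 0.05 (edgeR adjusted p = 1.2e-04), or 0.822 times the male level. Shaw was 142, 162, 138, 141 and 145 CPM in w+ males and 126, 118, 124, 113 and 140 CPM in w+ females. Only w+ female replicate 5 reached into the male range of Shaw, and the log2 difference was -0.23 with a standard error of 0.05 (edgeR adjusted p = 0.003). For sei, the w+ females had 54.7, 56.3, 54.2, 53.3 and 58.8 CPM, all below the 61 to 65.9 CPM of w+ males, with a log2 difference of -0.20 and a standard error of 0.04 (edgeR adjusted p = 5.7e-04).

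Sh and Shab passed the test by less. Sh was 1481, 1739, 1539, 1478 and 1522 CPM in w+ males and 1298, 1320, 1369, 1316 and 1570 CPM in w+ females, where replicate 5 overlapped with the males. Its log2 difference was -0.17 with a standard error of 0.06 (edgeR adjusted p = 0.024). Shab, the main delayed rectifier, was 398, 459, 408, 389 and 407 CPM in w+ males and 338, 357, 381, 335 and 400 CPM in w+ females, a log2 difference of -0.19 with a standard error of 0.06 (edgeR adjusted p = 0.017) and with overlapping ranges. Shal, Shaw and sei were called in all 14 alternatives tried, Shab in 9 and Sh in 7. Only Shal, Shaw and sei were called without replicate 1, without replicate 2, without w+ male replicate 2 alone, without w+ female replicate 4 alone and with only the w+ samples in the fit, and Sh also lost its call without replicate 3 or replicate 4.

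The other 5 members did not pass the test in w+ flies. KCNQ was at -0.14 (standard error 0.06, edgeR adjusted p = 0.063, and 6.0e-04 to 0.27 over the alternatives). It passed with the replicate block (edgeR adjusted p = 0.033), with DESeq2 (adjusted p = 0.048), with library size alone and without replicate 3 or replicate 5. Of the rest, slo and SK were each at -0.10, eag at -0.09 and Elk at 0.02. Of all genes called, 44.4% were lower in females. With library size alone this share was 90%, the median of all genes moved to -0.26, all 10 members were called lower and the sign of Elk changed to -0.23. Relative to that median the members then lay between -0.28 and 0.03, compared to -0.28 to 0.02 under TMM. The share of all genes called lower with library size alone is not given here, so the 10 calls have no background share.

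In w- flies, 6 members were lower in females, the same 5 as in w+ flies and KCNQ (whose sex difference did not pass a test of change between genotypes, edgeR adjusted p = 0.95), and none was higher, whereas 16.7% of all genes were lower and 18.6% higher (edgeR's quasi-likelihood test). The ranges of 5 members did not overlap, Sh, Shal, Shaw, sei and KCNQ, against 27.6% of all genes. The median log2 difference was -0.18 over the members and -0.015 over all genes. sei was 64.5, 67.6, 70, 70.4 and 71.2 CPM in w- males and 53.5, 53.2, 57.9, 54.5 and 58.4 CPM in w- females. This was the largest difference of the members, -0.31 on the log2 scale with a standard error of 0.04 (edgeR adjusted p = 5.0e-06), or 0.807 times the male level.

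Shal was 135, 138, 133, 140 and 144 CPM in w- males and 112, 117, 113, 109 and 121 CPM in w- females, with a log2 difference of -0.27 and a standard error of 0.05 (edgeR adjusted p = 1.7e-04). Shaw was 159, 151, 156, 153 and 163 CPM in w- males and 129, 131, 137, 126 and 143 CPM in w- females (log2 difference -0.23, standard error 0.05, edgeR adjusted p = 0.0026). For both genes every female sample lay below every male sample. KCNQ was 68, 63.5, 70.3, 61.7 and 61.9 CPM in w- males and 58.4, 57.5, 57.7, 51.9 and 54.9 CPM in w- females, again without overlap. Its log2 difference was -0.21 with a standard error of 0.06 (edgeR adjusted p = 0.008).

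Sh and Shab were also lower in w- females. Sh was 1559, 1463, 1500, 1448 and 1478 CPM in w- males and 1323, 1237, 1380, 1255 and 1395 CPM in w- females, which did not overlap (log2 difference -0.18, standard error 0.06, edgeR adjusted p = 0.023). Shab was 444, 404, 442, 444 and 447 CPM in w- males and 364, 376, 392, 360 and 422 CPM in w- females (log2 difference -0.19, standard error 0.06, edgeR adjusted p = 0.017), and the highest female sample exceeded w- male replicate 2. Shal, Shaw, sei and KCNQ were called in all 12 alternatives, Shab in 9 and Sh in 8. Both lost the call without replicate 1, 3 or 4, and Sh without replicate 2 as well (adjusted p between 0.055 and 0.099 for Sh and 0.061 and 0.091 for Shab).

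The calcium-activated channels slo and SK did not pass the test between the sexes in either genotype. slo was 531, 633, 546, 508 and 563 CPM in w+ males, 495, 504, 553, 485 and 556 in w+ females, 613, 579, 575, 619 and 610 in w- males and 510, 550, 593, 514 and 599 in w- females. The log2 difference of slo between w- females and w- males was -0.12 with a standard error of 0.06 (edgeR adjusted p = 0.15), and that of SK was 0.05 with a standard error of 0.09 (edgeR adjusted p = 0.69). Among the EAG family, eag was at -0.13 with a standard error of 0.07 (edgeR adjusted p = 0.13) and Elk at -0.00 with a standard error of 0.07 (edgeR adjusted p = 0.99) in w- flies. Of all genes called in w- flies, 47.4% were lower in females, or 81.8% with library size alone, which moved the median of all genes to -0.18 and gave 8 lower members, the 6 and also eag and slo. The share of all genes called lower with library size alone is not given here, so these 8 calls have no background share.

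**Figure D4:**
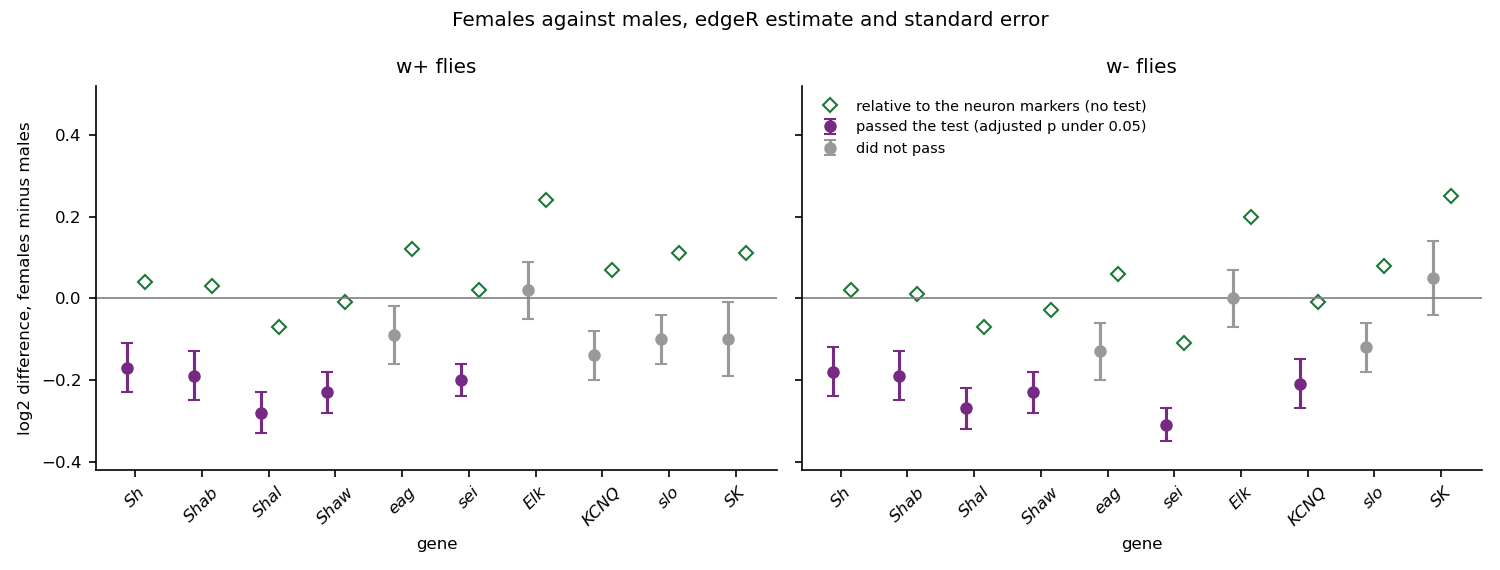
Log2 difference of each member between females and males (vertical axis, females minus males) in w+ and w- flies; filled points are edgeR estimates with standard errors, purple where the test was passed, and open diamonds are the differences relative to the mean of 13 neuron markers. Shal, Shaw, sei, Sh and Shab were lower in females of both genotypes, and relative to the neuron markers Shal was at -0.07 in both.

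Most of the general neuron markers were lower in females along with the members. Of 13 neuron markers, 10 were called lower in w+ females and 10 in w- females, with median log2 differences of -0.20 and -0.21. The synaptic genes nSyb, brp and Syt1 were called in both genotypes, and the RNA-binding protein gene elav in neither. The level of elav was 82.4 to 120 CPM in w+ males and 77.4 to 111 in w+ females. In w- males and females it was 101 to 120 and 98.5 to 120 CPM. Their summed level was 6880 to 7908 CPM in w+ males and 5751 to 6822 in w+ females, and 7264 to 7631 in w- males and 6128 to 6707 in w- females. When each member was set relative to the geometric mean of these markers in the same sample, a scaling chosen after seeing the data and carrying no test, Shal was at -0.07 on the log2 scale in both genotypes, compared to -0.28 and -0.27 before, and its male and female ranges overlapped. On this scale Sh (0.04), Shab (0.03) and sei (0.02) were above 0 and Shaw (-0.01) below 0 in w+ flies. sei was at -0.11, Shaw at -0.03, KCNQ at -0.01, Sh at 0.02 and Shab at 0.01 in w- flies. The members with no call between the sexes then lay higher in females, with Elk at 0.24 in w+ and 0.20 in w- flies and SK at 0.11 and 0.25. The part that neuron content plays in the member differences was not tested.

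Between genotypes the neuron markers had no call, with a median log2 fold change of 0.07 in males and 0.10 in females and summed levels that overlapped. Relative to them SK was at -0.35 in w- minus w+ males and -0.22 in females, and Sh at -0.12 and -0.14. In males the other members lay between -0.03 and 0.05 on this scale, and in females they ran from -0.11 to 0.04. The groups of Sh did not overlap on it in either sex, nor those of SK in males. How many of all genes do not overlap on this scale was not computed, so these cases have no background share. Before this scaling Sh was at -0.06 in each sex, and the ranges of every member overlapped.

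Markers of other head tissues moved as well. All 5 hemocyte markers were higher in females of each genotype (medians 1.11 and 1.62), as were 12 of 16 muscle markers in w+ and 13 in w- flies (1 muscle marker was lower in w+ females), and 3 of the 5 fat body markers tested. The summed muscle level was 5513 to 6238 CPM in w+ males and 6784 to 8492 in w+ females, and 5681 to 6449 and 8980 to 10009 in w- males and females. Photoreceptor markers were split, with 1 higher and 2 lower of 14 in w+ females and 9 lower in w- females, where their sum was 52017 to 57210 CPM against 64789 to 69916 in w- males. Glia markers had 2 higher and 2 lower of 7 in each genotype. Mitochondrially encoded genes had 3 higher of 10 in w+ females and 2 higher in w- females, and none lower. Between genotypes, 5 photoreceptor markers and 1 muscle marker were higher and 1 fat body marker and 5 of 10 mitochondrially encoded genes lower in w- males, and 8 muscle markers and 1 photoreceptor marker were higher in w- females. Their part in the member differences was not tested.

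Of 12 other potassium channel genes, the relatives Shawl and SLO2 and the inward rectifier and 2-pore channels, none passed the test between w- and w+ flies of either sex (edgeR's quasi-likelihood test in all of these lists). In w+ females 4 were lower than in w+ males, Task7 by -0.31, CG1688 and Shawl by -0.26 each and Task6 by -0.23, and the 2-pore leak channel Ork1 was higher, by 0.50 (log2; adjusted p = 0.029). Ork1 lost this call without w+ male replicate 2 alone (0.46, adjusted p = 0.067) or w+ female replicate 4 alone (0.47, adjusted p = 0.06) and without replicate 1, 2 or 4, and Shawl lost its call without replicate 1 (adjusted p = 0.053) or replicate 2 (adjusted p = 0.072). In w- females 3 were lower, CG1688 by -0.34, Task7 by -0.32 and Task6 by -0.30. The median over the list was -0.14 in both genotypes, near the -0.16 and -0.18 of the members.

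Of 11 genes for accessory and regulatory proteins of the channels, 2 were higher in w- flies in each sex, where 12.7% of all genes were called in males and 9.23% in females. Cam, the calmodulin that serves SK as its calcium sensor, was called in both sexes. In males it was at 4314 ± 186 CPM in w+ and 5398 ± 408 CPM in w- flies (SD, n = 5 each), 0.32 higher on the log2 scale (edgeR adjusted p = 0.011, standard error 0.06). Female samples were at 4032 ± 340 and 5028 ± 441 CPM, 0.32 higher as well (standard error 0.07, edgeR adjusted p = 0.04). dysc, which encodes a scaffold protein that acts with slo, was higher in w- males by 0.31 (edgeR adjusted p = 0.013), and Adar, the RNA-editing enzyme that recodes several channel transcripts, was higher in w- females by 0.29 (edgeR adjusted p = 0.022). Cam lost its call in females whichever replicate number was left out (adjusted p between 0.051 and 0.16), Adar in females without replicate 1, 2 or 4 (0.052 to 0.09), and dysc without replicate 3 (0.057) or replicate 5 (0.06). Between the sexes Adar was lower in w+ females, by -0.22, and qvr (sleepless), which regulates Sh, was lower in w- females, by -0.22. Adar was not called without w+ male replicate 2 alone (adjusted p = 0.061), without w+ female replicate 4 alone (0.054) or without replicate 1 or 2 (0.081 and 0.16), and qvr not without replicate 1, 3 or 4 (0.053 to 0.11). The remaining genes of the list, such as the Sh beta subunit gene Hk and the slo-binding protein gene Slob, had no call in any of these comparisons.

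Of 17 genes for sodium, calcium and other excitability channels, 11 were lower in w+ females and 10 in w- females than in males, with medians of -0.19 in both. The sodium channel accessory subunits Teh1 (-0.30), tipE (-0.27) and Teh2 (-0.26) and the channel regulator stol (-0.25) had values in w+ flies similar in size to those of the members. The sodium channel gene para was lower in w+ females, by -0.21 (edgeR adjusted p = 0.043), a call lost without w+ male replicate 2 alone (adjusted p = 0.12), w+ female replicate 4 alone (0.11) or replicate 2, 3 or 4 (0.13 to 0.2), and stol lost its call without either of these libraries (0.079 and 0.071) and without replicate 1 or 2. In w- flies unc79 and Teh2 were at -0.32 each, Teh1 at -0.28 and tipE at -0.24. Between genotypes the list had 1 call in males, Ih (0.16), and 3 in females, stol (0.21), Teh1 (0.16) and Ca-beta (0.14), each higher in w- flies. Ih was not called without replicate 1, 3, 4 or 5 (adjusted p between 0.083 and 0.18), and none of the 3 in females without replicate 1, 2 or 4 (0.064 to 0.16). Teh1 in females was also not called without replicate 3 (edgeR adjusted p = 0.066), nor Ca-beta without replicate 3 or 5 (0.052 and 0.087).

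Potassium is returned to the cell by the sodium pump and moved by chloride cotransporters, and 6 such genes were listed. The pump subunit gene nrv1 was higher in w- flies of both sexes, by 0.28 in males and 0.43 in females (edgeR adjusted p = 0.0037 and 0.02), as was the sodium-potassium-chloride cotransporter gene Ncc69, by 0.16 and 0.37 (edgeR adjusted p = 0.045 and 0.039). Ncc69 lost its call in males whichever replicate number was left out (adjusted p between 0.061 and 0.14), and in females Ncc69 lost it without replicate 1, 2 or 4 (0.067 to 0.13) and nrv1 without replicate 1 or 4 (0.086 and 0.08). In w+ flies 3 of the 6 were lower in females, kcc (-0.30), nrv3 (-0.21) and the pump's catalytic subunit gene Atpalpha (-0.18). Atpalpha was not called without replicate 2, 3 or 4 or without w+ male replicate 2 or w+ female replicate 4 alone (adjusted p between 0.053 and 0.15), and nrv3 not without replicate 2 (0.086). In w- flies kcc (-0.32) and nrv3 (-0.21) were lower in females and nrv1 (0.23) and Ncc69 (0.20) higher, the last not without replicate 1, 3 or 5 (adjusted p between 0.09 and 0.16). Over these 4 lists of channels, accessory proteins and pumps, 5 of 46 genes (10.9%) were called between w- and w+ males, where 12.7% of all genes were called. In females 7 of 46 (15.2%) were called, where 9.23% of all genes were, and all these genes were higher in w- flies. Without w+ male replicate 2 the number in males was 16, of which 14 were higher, and without w+ female replicate 4 the number in females was 0. The shares of all genes called without these libraries are not given here, so these counts have no background share. Between the sexes 20 of 46 (43.5%) were called in w+ flies and 18 of 46 (39.1%) in w- flies. Of all genes, 15.8% were called lower and 19.7% higher in w+ females, and 16.7% and 18.6% in w- females.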

How the data were processed

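Each of the 20 samples was RNA of pooled heads, and its group and replicate number were taken from its label. The authors trimmed the reads with TrimGalore 0.6.1, aligned them to the r6.60 genome with STAR and deposited STAR's reverse-strand counts per gene as whole numbers, without normalization. All columns of that table belonged to these samples. The normalized tables for each sex were not used. Gene IDs were matched to symbols for 17597 of the 17609 genes. Gene positions and lengths of exons are those of Ensembl's BDGP6.54 annotation, which is the same release 6 assembly as r6.60, since the counts carry no coordinates.

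A gene was kept with 10 or more counts in 3 or more of all samples and in 3 or more samples of the fit. Counts were tested with edgeR 4.0.16 in R 4.3.3 (TMM normalization, robust quasi-likelihood fit), with Benjamini-Hochberg adjusted p under 0.05 as a call over all genes kept. The w- against w+ comparison was fitted within each sex with the replicate number as a block, because the study's code fits eye color and replicate. Females were compared with males in 1 fit of 4 groups without a block, and the difference between the sexes with the 10 pairs of sex and number as blocks. The common biological coefficient of variation was 0.108 and 0.164 in the male and female fits, 0.178 in the fit of 4 groups and 0.14 in the fit of the difference. Standard errors were obtained by dividing the log2 fold change by the root of the F statistic. DESeq2 1.42.0 was the alternative test. Levels per kilobase divide TMM-scaled CPM by the total exon length of a gene, and reads carry no molecular identifiers here.

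All 10 members were named, with the called genes of largest change from the lists of other channels, accessory proteins and pumps (up to 4 per list and comparison) and the most abundant markers. A few others were named after their values were seen: para, Hk and Slob, and elav, brp and Syt1 as well-known markers. The members and lists were chosen with earlier results of these data known. After the counts were read, the symbols of the Teh and roX genes were respelled as the annotation gives them and Nlf-1, which no symbol matched, was left out. The steps were tested on simulated data. No reference sequence of these genes was used here.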

Additional observations from a re-analysis of the deposited data

Results flagged for a closer look

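Of 40 groups of 5 samples (10 members in 4 groups), 6 had a sample far from the other samples of its group by Dixon's test. The test flags about 1 of 20 groups by chance when groups are independent. The members were measured in the same samples, so these groups are not independent, and the 6 flags cannot be set against that rate. In w+ males the flagged sample was replicate 2 for 4 members, the highest sample each time. Sh was at 1739 CPM there against 1539 for the next sample, Shab at 459 against 408, Shal at 138 against 126 and eag at 202 against 169. In w+ females Sh was at 1570 CPM in replicate 5, and the next sample was at 1369. In w- males Shab was at 404 CPM in replicate 2, below the next sample at 442. Without w+ male replicate 2, Sh and Shab were not called between w+ females and males (log2 differences of -0.13 and -0.15, edgeR adjusted p = 0.078 and 0.056). What sets these samples apart was not tested.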

How the results depend on the processing

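Of 630 member values under the alternatives, 583 kept their side of the threshold (571 of them with the same sign or at 0, while 12 changed sign without a call in either fit), 19 lost a call, 27 gained one and 1 changed sign with a call (Elk, to -0.23 in w+ females minus males with library size alone). In w- against w+ males, the number of called members was 2 with library size alone and with all samples in 1 fit, 1 with at least 10 counts in every sample, with DESeq2 and with no replicate block, 2 without w+ male replicate 2, and 0 to 2 with each replicate left out. In females it was 3 with library size alone, 1 with all samples in 1 fit and 0 with each replicate left out. In w+ females against w+ males it was 10 with library size alone, 3 with only the samples of the genotype, 3 without w+ male replicate 2 or w+ female replicate 4, and 3 to 6 with each replicate left out. In w- flies it was 4 to 6 with each replicate left out. The calls of the other 4 lists were 13 in males, 23 in females, 40 in w+ and 38 in w- flies with library size alone, 3 in males with no filter on low counts and 3 in females with no replicate block. They were 16 in males and 13 between w+ sexes without w+ male replicate 2, and 0 in females and 13 between w+ sexes without w+ female replicate 4. With each replicate left out these ran from 2 to 16, 0 to 6, 11 to 25 and 13 to 20. Apart from DESeq2 between genotypes, the shares of all genes called under the alternatives are not given here. The counts above therefore have no background share. Relative to the neuron markers, females minus males changed sign for Sh (0.04), Shab (0.03), sei (0.02), KCNQ (0.07), eag (0.12), slo (0.11) and SK (0.11) in w+ flies and for Sh (0.02), Shab (0.01), eag (0.06) and slo (0.08) in w- flies. The cause of these shifts was not tested. The alternatives without a single library and relative to neuron markers were chosen after seeing the data.

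Samples with the same replicate number did not all deviate together from their group means (correlations from -0.427 to 0.764 in males and -0.309 to 0.188 in females), and 2 and 0 of 5 correlated best with their own number. The mean was 0.304 in males (-0.0576 between other numbers, 4 of 5 pairs over 0.1) and -0.0749 in females (0.0273). Between the sexes, where the main fit had no block, it was 0.234 in w- flies (-0.0566, 4 of 5 pairs over 0.1 and 3 of 5 best with their own number) and 0.0301 in w+ flies (-0.00384). The replicate block in the sex comparisons gave 6 called members in w+ and 6 in w- flies. Each member had 1126 or more counts in every sample, so that the counting error of a single value is at most 2.98%.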
